A study of Mus musculus with 6 samples.

Results

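Imprinted genes are expressed from only the maternal or only the paternal copy, and several of them carry miRNA hairpins. A hairpin is cut into a duplex of a 5p and a 3p arm, and the arm kept by the silencing complex pairs with target mRNAs through its seed, bases 2 to 8. Mest, Igf2, H19 and the Dio3 locus are active in fetal growth and are largely shut down after birth in most tissues. The 8 mature miRNAs described here are the arms of the 4 hairpins in or at these genes: miR-335 of Mest, miR-483 of Igf2, miR-675 of H19 and miR-1247 of Dio3os. They were chosen by name, as 8 of the 1966 miRNA rows of the count table.

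Small RNA was sequenced from hearts of 6 male wild-type (WT) mice, 8 weeks after surgery. Of these, 3 had sham surgery (animals 47, 68 and 69) and 3 had transverse aortic constriction (TAC, animals 29, 78 and 81), an operation that tightens the aortic arch and makes the heart pump against a raised pressure. No age, strain or part of the heart is named in the labels used here. Each mouse gave 1 library, and setting TAC beside sham shows how miRNA levels differ under a lasting pressure load.

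Library totals ranged over 1818725 to 3509001 counts for the sham mice and over 1226187 to 1795831 for the TAC mice, so every TAC library was shallower than every sham library. Levels are CPM, read counts relative to library size, scaled by TMM to allow for differences in composition. The TMM factors were 0.868 to 0.921 for TAC and 1.10 to 1.13 for sham. A row at 0 may still stand for up to 3 counts, which on that scale is 0.767 to 1.51 CPM for sham libraries and 1.82 to 2.82 CPM for TAC libraries, counting error only. The libraries held the markers of heart muscle: 5 cardiomyocyte miRNAs summed to 151813 to 183071 CPM in sham and 273505 to 325896 in TAC. Of 4 endothelial markers, 3 were at 0 in every library, miR-126a-3p among them, and so was miR-122-5p of liver. Each of these overlaps an opposite-strand row of the table, and its 0 was not read as absence. Leukocyte markers summed to 1114 to 1503 CPM in sham and 1501 to 1627 in TAC, and red blood cell markers to 999.9 to 1165 and 1642 to 3063. At 0 in every library were 1 of the 6 leukocyte and 1 of the 4 red blood cell markers, so these sums are not complete.

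The mature sequences show that the 8 members are no family, because no pair of them shares a seed. They are printed 5′ to 3′ as RNA from RefSeq (GRCm38.p6), with the seed in capitals, and the RefSeq positions of 8 of 8 equal those of the count table (build mm10, the same assembly).
miR-335-5p: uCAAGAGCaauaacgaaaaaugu
miR-335-3p: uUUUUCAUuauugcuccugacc
miR-483-5p: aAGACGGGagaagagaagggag
miR-483-3p: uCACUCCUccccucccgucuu
miR-675-5p: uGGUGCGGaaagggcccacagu
miR-675-3p: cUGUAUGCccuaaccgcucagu
miR-1247-5p: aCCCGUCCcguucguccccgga
miR-1247-3p: cGGGAACGucgagacuggagc
Among the 1675 rows with a RefSeq sequence, 0 others had the seed of any member. The nearest other sequence lay 6 to 8 edits away from each member, and each member has 1 place in the genome and no row on the opposite strand over it. The members differ in base composition: miR-335-5p holds 30.4% G and C and miR-1247-5p 72.7%.

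The hairpins sit differently in their host genes (GENCODE vM21). miR-335-5p (chr6:30741314-30741336) and miR-335-3p (chr6:30741354-30741375), on the plus strand, are intronic in all 7 Mest transcripts that span them. miR-483-5p (chr7:142654968-142654989) and miR-483-3p (chr7:142654932-142654952), on the minus strand, are intronic in all 7 such Igf2 transcripts. miR-675-5p (chr7:142577112-142577133) and miR-675-3p (chr7:142577078-142577099), on the minus strand, lie within an exon of 3 of the 4 H19 transcripts that span them. miR-1247-5p (chr12:110278094-110278115) and miR-1247-3p (chr12:110278058-110278078), on the minus strand, lie in exon 1 of the noncoding Dio3os. No other miRNA row lies within 10 kb of a member on its strand, apart from its partner arm.

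Of the 8 members, 7 had at least 1 count in any library and 4 passed the filter on low counts (edgeR's filterByExpr): miR-335-5p, miR-335-3p, miR-483-3p and miR-1247-5p. Of those 4, 1 was called lower in TAC (miR-1247-5p) and 1 higher (miR-335-5p) by edgeR's quasi-likelihood test at an adjusted p under 0.05, and 2 were not called. Among all 354 miRNAs tested, 30.5% were called, 11.3% as lower and 19.2% as higher, so the share of called members was not set apart from that of other miRNAs. The remaining 4 members, miR-483-5p, both miR-675 arms and miR-1247-3p, were too low for the test.

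**Figure D1:**
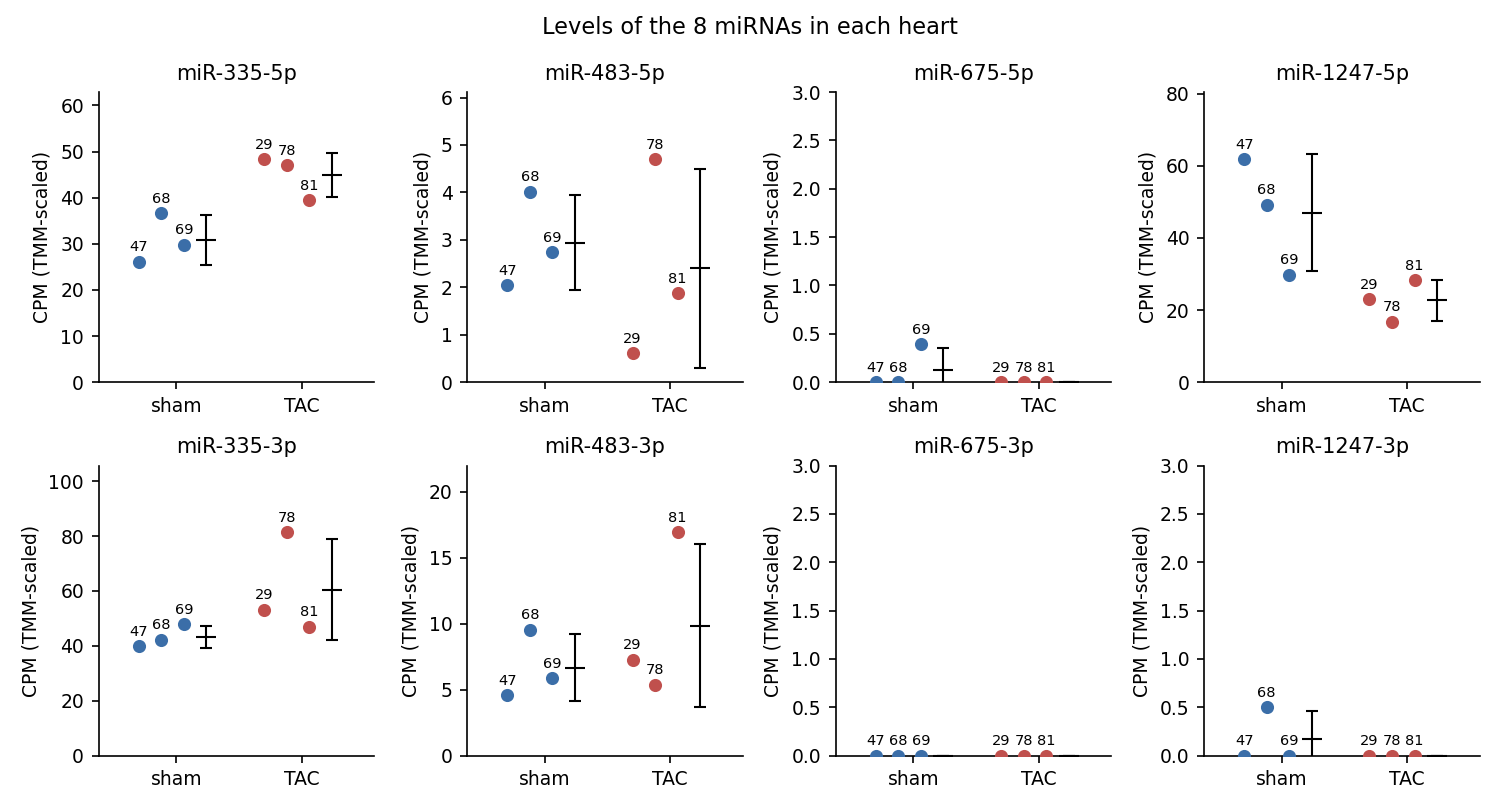
Level of each member (TMM-scaled CPM, linear axis from 0, scaled per panel) in each heart, labelled by animal number, with the mean and SD of the 3 mice of a group in black. The 3 TAC hearts lie below the 3 sham hearts for miR-1247-5p and above them for miR-335-5p, the other members overlap between the groups, and both miR-675 arms are at or near 0.

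miR-1247-5p differed most among the 4 tested members. It comes from the Dio3os transcript, which starts beside Dio3, the gene of the deiodinase that inactivates thyroid hormone, at the far end of the imprinted Dlk1-Dio3 domain. Its counts were 242 in sham 47, 98 in sham 68 and 76 in sham 69, and 38 in TAC 29, 25 in TAC 78 and 30 in TAC 81. Scaled, the sham hearts stood at 61.9, 49.2 and 29.8 CPM and the TAC hearts at 23.0, 16.8 and 28.2 CPM. The groups did not overlap, though the lowest sham heart, 69, was only just above the highest TAC heart, 81. Of all tested miRNAs 51.4% had groups without overlap, 22.0% with all TAC values below all sham values. The mean fell from 47.0 ± 16.2 to 22.7 ± 5.71 CPM (SD, n = 3 each), a log2 fold change of -1.08 ± 0.30 (SE; 95% interval -1.75 to -0.40; edgeR adjusted p = 0.0283), or 2.11-fold lower.

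The fall of miR-1247-5p kept its direction in all 18 alternative analyses, with log2 fold changes of -1.38 to -0.78, and its call in 14 of them (adjusted p of 4.74e-06 to 0.109). The value of 4.74e-06 came from the edgeR fit with no low-count filter, over 1100 rows, while DESeq2 gave 0.00271. The 4 without a call each left out 1 mouse: -0.78 without sham 47 (adjusted p = 0.0878), -1.04 without sham 68 (0.0765), -1.11 without TAC 29 (0.0605) and -0.91 without TAC 78 (0.109). With every library thinned to the smallest total, the change was -1.07 (adjusted p = 0.0207). With the trend of each library with GC content removed it was also -1.07, with adjusted p = 0.0484.

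The partner arm miR-1247-3p had 1 count, in sham 68, and 0 in the other libraries. The hairpin shows how the arms lie, with both in capitals, the 5p arm first.
Mir1247: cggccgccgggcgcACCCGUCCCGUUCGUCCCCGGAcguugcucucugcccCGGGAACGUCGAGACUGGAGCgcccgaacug
The 5p arm held 100% of the counts of the hairpin in 5 of the 6 libraries and 99.0% of 99 counts in sham 68 (exact binomial 95% interval 94.5% to 99.97%). In TAC 78, with 25 counts, the interval reached down to 86.3%. One arm therefore carried nearly all reads in sham and in TAC hearts alike. With both arms summed, the hairpin had a log2 fold change of -1.19 ± 0.31 (edgeR adjusted p = 0.0207), against 31.4% of 274 hairpins called, 17.2% as lower. That call was held in 10 of 14 alternatives and lost without sham 47 (adjusted p = 0.0711), sham 68 (0.0508), TAC 29 (0.0699) or TAC 78 (0.0903).

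miR-335-5p, from an intron of Mest, a paternally expressed gene of an enzyme-like protein of fetal mesoderm, was higher in TAC. Its levels were 26.1, 36.7 and 29.8 CPM in sham 47, 68 and 69 and 48.4, 47.0 and 39.5 CPM in TAC 29, 78 and 81. The groups did not overlap, which held in the higher direction for 29.4% of all tested miRNAs. The mean went from 30.8 ± 5.37 to 45.0 ± 4.81 CPM (SD, n = 3 each), a log2 fold change of 0.56 ± 0.18 (SE; 95% interval 0.16 to 0.97; edgeR adjusted p = 0.0431), or 1.48-fold. The 4 smooth muscle markers summed to 34646 to 43270 CPM for sham and 59555 to 62589 CPM for TAC. Of these, 3 were called higher. The 5 cardiomyocyte markers above also had a higher sum in every TAC heart, with 4 called higher and the other not called. So did the red blood cell markers above, with 1 of 3 tested called higher and 0 lower. Leukocyte sums overlapped between the groups, with 1 of 5 tested called higher. Fibroblast and mesenchymal markers, given below, went the other way. Of all tested miRNAs 19.2% were called higher. The part of these markers in the level of miR-335-5p was not tested.

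That call was close to the threshold and was lost in 15 of 18 alternatives, while the direction held in all 18 (0.16 to 0.71; adjusted p of 0.0322 to 0.561). The change was 0.26 with library totals (adjusted p = 0.302) and 0.16 with the GC trend removed (0.561). The call was also lost without sham 47 (adjusted p = 0.105), sham 69 (0.0998), TAC 29 (0.109), TAC 78 (0.139) or TAC 81 (0.0707).

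miR-335-3p, the other arm of the same hairpin, was at 39.9, 42.2 and 47.8 CPM in sham 47, 68 and 69 and at 53.2, 81.3 and 47.0 CPM in TAC 29, 78 and 81. TAC 78 stood above the rest, and TAC 81 lay below sham 69, so the groups overlapped. The log2 fold change was 0.49 ± 0.22 (SE; 95% interval -0.01 to 0.99; edgeR adjusted p = 0.12), positive in all 18 alternatives and called in 0.

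The hairpin of miR-335 is shown because both of its arms were recovered, in capitals, the 5p arm first.
Mir335: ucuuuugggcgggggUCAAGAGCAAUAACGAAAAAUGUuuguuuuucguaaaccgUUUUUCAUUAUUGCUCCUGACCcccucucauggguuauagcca
The 3p arm had more counts than the 5p arm in 6 of 6 libraries. The 5p arm held 39.5%, 46.5% and 38.4% of the hairpin's counts for sham 47, 68 and 69 and 47.6%, 36.6% and 45.7% for TAC 29, 78 and 81. The difference of the group means, 1.83 percentage points, was smaller than the spread between mice (exact permutation p = 0.9, two-sided, adjusted p = 1 over 3 hairpins, where 3 against 3 cannot go below 0.1). The hairpin as a whole went from 77.0 ± 6.34 CPM for sham to 101.4 ± 20.1 CPM for TAC, with a log2 fold change of 0.40 ± 0.18 (95% interval -0.0046 to 0.81; edgeR adjusted p = 0.108).

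miR-483, which lies in an intron of the fetal growth factor gene Igf2, was low in every heart. miR-483-3p counts were 18 for sham 47, 19 for sham 68 and 15 for sham 69, and 12 for TAC 29, 8 for TAC 78 and 18 for TAC 81. That is 4.60, 9.54 and 5.88 CPM for the sham hearts and 7.26, 5.38 and 16.9 CPM for the TAC hearts. The highest heart was TAC 81 and the groups overlapped. The log2 fold change of 0.54 ± 0.48 (SE; 95% interval -0.55 to 1.64; edgeR adjusted p = 0.4) turned to -0.02 without TAC 81, and the interval spans 0.681 to 3.11 times the sham level.

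miR-483-5p counts were 8 for sham 47, 8 for sham 68 and 7 for sham 69, and 1 for TAC 29, 7 for TAC 78 and 2 for TAC 81. The sham mean was 2.94 ± 0.9997 CPM and the TAC mean 2.40 ± 2.10 CPM (SD, n = 3 each). TAC 29 and TAC 81 had fewer than 3 counts, so their levels rest on very few reads. The 5p share of the hairpin was 30.8%, 29.6% and 31.8% for the sham hearts, and 7.69%, 46.7% and 10% for TAC 29, 78 and 81, from 13 to 27 counts per library. The difference of the means, -9.29 percentage points, was smaller than the spread between the TAC hearts (SD 21.9; exact permutation p = 0.4, adjusted p = 1, where 3 against 3 cannot go below 0.1). With both arms summed the log2 fold change was 0.23 ± 0.40 (edgeR adjusted p = 0.661), and -0.15 without TAC 81.

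miR-675, processed from the maternally expressed noncoding RNA H19 and known as a brake on Igf1r in the placenta, was not detectable at this depth. miR-675-3p had 0 counts in all 6 libraries, and miR-675-5p had 1 count, in sham 69, and 0 in the others. The floors above reach 2.82 CPM, close to the mean level of miR-483-5p, and a change below them could not be seen. Neither arm was tested.

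By group mean, the order of the members differed between sham and TAC. All members are 21 to 23 nt long, but how evenly small RNAs of different sequence were captured was not tested, so the order is that of read counts. In the sham means miR-1247-5p came first (47.0 CPM), followed by miR-335-3p (43.3), miR-335-5p (30.8), miR-483-3p (6.67) and miR-483-5p (2.94). Sham 69 did not show this order: there miR-1247-5p and miR-335-5p were level at 29.8 CPM, below miR-335-3p at 47.8. The range of miR-1247-5p over mice, 29.8 to 61.9 CPM, overlapped that of each miR-335 arm, while the 2 arms (39.9 to 47.8 and 26.1 to 36.7 CPM) did not overlap each other. In TAC hearts the order was miR-335-3p (60.5), miR-335-5p (45.0), miR-1247-5p (22.7), miR-483-3p (9.85) and miR-483-5p (2.40). There miR-1247-5p, at 16.8 to 28.2 CPM, lay below every value of either miR-335 arm and overlapped none of them, but TAC 81 had more miR-483-3p than TAC 78 had miR-1247-5p. None of the members is abundant: by mean CPM miR-335-3p ranked 190 of 354, miR-335-5p 209, miR-1247-5p 215 and miR-483-3p 314.

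The ratio of miR-1247-5p to both miR-335 arms within a library needs no scaling between libraries, and was taken after the values were seen. It sets the member called lower over the hairpin whose 5p arm was called higher, so a lower ratio in TAC follows from that choice. Any trend with GC content stays in the ratio, as miR-1247-5p holds 72.7% G and C and the miR-335 arms 30.4% and 36.4%. With that trend removed, the log2 fold change was 0.16 for miR-335-5p, 0.20 for miR-335-3p and -1.07 for miR-1247-5p. There were 0.938, 0.624 and 0.384 counts of miR-1247-5p per miR-335 count for sham 47, 68 and 69, and 0.226, 0.131 and 0.326 for TAC 29, 78 and 81. The groups did not overlap, and on the log2 scale the means were -0.72 ± 0.65 and -2.23 ± 0.66 (SD, n = 3 each). The difference of -1.51 had an exact permutation p = 0.1, the smallest that 3 against 3 allows, and was -1.85 to -1.16 with each mouse left out in turn.

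**Figure D2:**
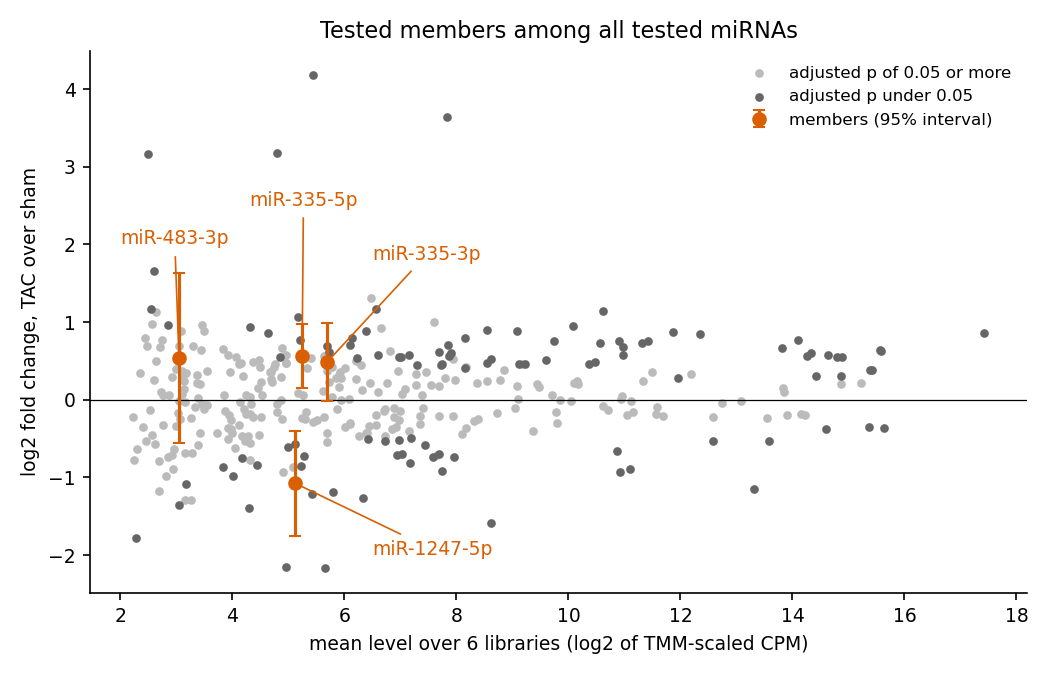
Log2 fold change of TAC over sham against mean level (log2 of TMM-scaled CPM) for the 354 tested miRNAs, dark where the edgeR adjusted p was under 0.05. The 4 tested members are in orange with their 95% intervals: miR-1247-5p lies below 0 with its whole interval, miR-335-5p above 0, and the intervals of miR-335-3p and miR-483-3p include 0.

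The miRNAs whose profiles over the 6 libraries were nearest to that of each tested member were found by the root-mean-square distance of centred log2 CPM, in log2 units. For miR-1247-5p these were miR-199a-5p (0.22), miR-455-3p (0.26) and miR-214-5p (0.28), against a median distance of 0.72 over all tested non-members. miR-199a-5p and miR-214-5p come largely from the Dnm3os transcript of mesenchymal cells, and miR-455-3p from an intron of the collagen gene Col27a1. miR-199a-5p was at 3278, 3113 and 2152 CPM in sham 47, 68 and 69 and at 1678, 1382 and 1538 CPM in TAC 29, 78 and 81. miR-455-3p was at 2863, 2931 and 1864 CPM for the sham hearts and 1319, 1381 and 1332 CPM for the TAC hearts. miR-214-5p was at 88.8, 82.9 and 60.7 CPM and at 34.5, 34.3 and 32.9 CPM. In each of these, as in miR-1247-5p, sham 69 was the lowest sham heart and lay above every TAC heart. Their log2 fold changes were -0.89, -0.93 and -1.19. They were picked for this likeness over the same 6 libraries, so a shared order of hearts and a shared direction follow from the choice.

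The 6 fibroblast and mesenchymal marker miRNAs summed to 19111 to 30895 CPM in sham and 16660 to 17239 CPM in TAC. Of them, 5 were called lower, 0 higher, and none was at 0, where 11.3% of all tested miRNAs were called lower. They include miR-199a-5p and miR-214-5p, picked above for their likeness to miR-1247-5p. All 6 are arms of miR-199 or miR-214 hairpins, so they are not separate measures. The rows of miR-199a-3p and miR-199b-3p, both called lower, had the same log2 fold change of -0.53. Their sham means were 14586 and 7292 CPM, so the sum rests largely on these rows and their calls cannot be counted apart. Their part in the lower level of miR-1247-5p was not tested. In heart tissue, of which the labels name no part, fewer cells of a type and less RNA per cell cannot be told apart.

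For miR-335-5p the nearest profiles were miR-194-5p (0.08), miR-25-3p (0.12) and miR-26b-5p (0.13), against a median of 0.40. Each was higher in all 3 TAC hearts than in all 3 sham hearts, with log2 fold changes of 0.52, 0.46 and 0.58, a direction that the choice by likeness brings with it. For miR-335-3p they were miR-130a-3p (0.18), miR-326-3p (0.19) and miR-151-5p (0.20), and for miR-483-3p miR-20a-5p (0.37), the erythroid miR-144-3p (0.37) and miR-190a-5p (0.39). The log2 fold changes of these 6 ranged from 0.28 (miR-144-3p) to 0.57 (miR-190a-5p). The arms of miR-335 thus shared none of the 3 profiles kept for each. Members were left out of that search, so the likeness of the arms to each other was not measured.

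miR-1247 closes the Dlk1-Dio3 domain on chromosome 12, whose other miRNAs are made from maternally expressed noncoding RNAs such as Meg3, Rian and Mirg. The domain holds 114 other rows from miR-770 to miR-1247, of which 29 passed the filter, all on the plus strand, opposite to miR-1247. Of these 29, 11 fell, 0 rose and 18 were not called, where 11.3% of all 354 tested miRNAs were called lower and 19.2% higher. The median log2 fold change of the 29 was -0.60, against 0.07 over all 354. That median was negative under every alternative (-0.91 to -0.45). The 4 called with the smallest p were miR-668-3p (-1.40 ± 0.24), miR-431-3p (-0.98 ± 0.22), miR-127-3p (-0.66 ± 0.17) and miR-433-3p (-0.91 ± 0.24), with edgeR adjusted p = 0.00402, 0.0113, 0.0192 and 0.0226. The log2 fold change of miR-1247-5p was the fourth lowest of the 30, although it lies 535 kb from the nearest of them, miR-409-3p at -0.45 ± 0.21. It was thus within the range of the cluster, -1.40 to 0.14, and no difference from it was tested.

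**Figure D3:**
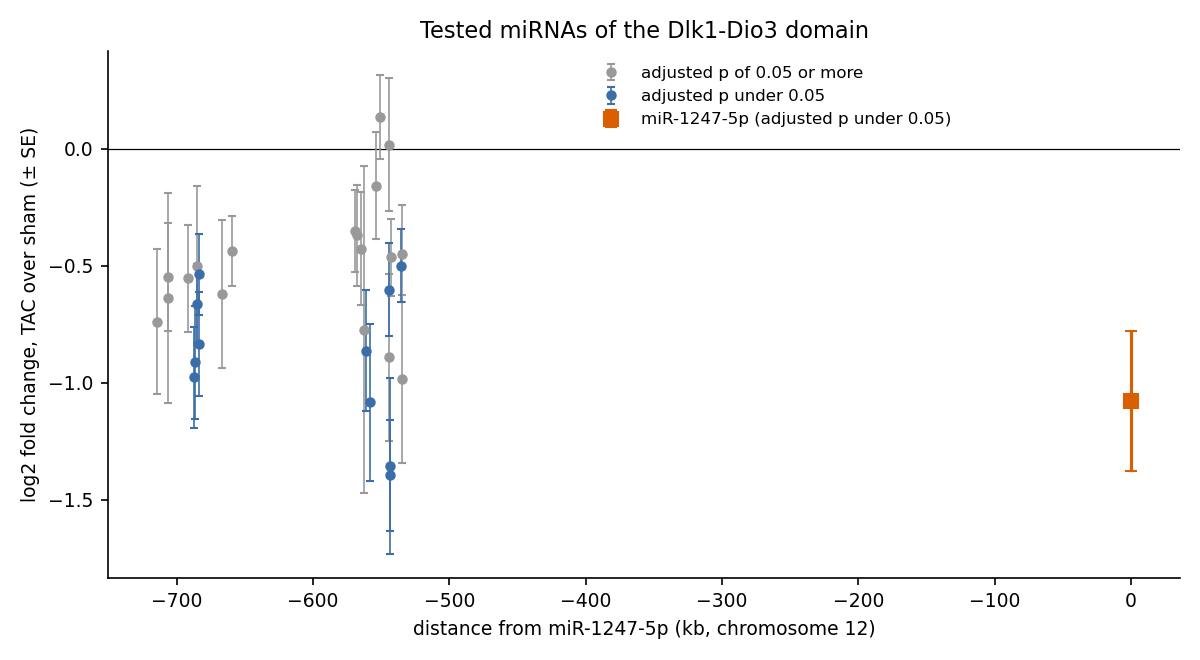
Log2 fold change of TAC over sham (± SE) of the 30 tested miRNAs of the Dlk1-Dio3 domain, by distance from miR-1247-5p (orange square). The other 29 lie 535 to 714 kb away on the opposite strand, 27 of them below 0, and miR-1247-5p falls within their range.

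Other imprinted miRNA loci were mostly low or lower. Of 4 rows at the Gnas locus 3 were tested: both miR-298-5p (-2.15 ± 0.25) and miR-296-3p (-2.17 ± 0.27) fell (edgeR adjusted p = 0.000901 each), and miR-296-5p was at -0.43 ± 0.27. Of 70 rows of the repeat-like cluster in Sfmbt2, 13 had any count and 1 was tested, miR-669c-5p, which was not called (-0.64 ± 0.53). Over these loci and the domain together 33 miRNAs were tested, of which 13 fell and 0 rose. Of the 13, 11 were of the Dlk1-Dio3 domain and 2 of the Gnas locus. miRNAs of 1 locus, some of them arms of 1 hairpin, are not separate measures. Among all 354 tested miRNAs 11.3% were called lower and 19.2% higher. The count of 13 was 7 without sham 68, 6 without sham 69, 8 without TAC 78 and 4 without TAC 81, and 26 with library totals, with 0 higher in each. miR-335-5p, the one called member with a higher level, therefore differed in sign from every called miRNA of the other imprinted loci, although its own call was unstable.

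**Figure D4:**
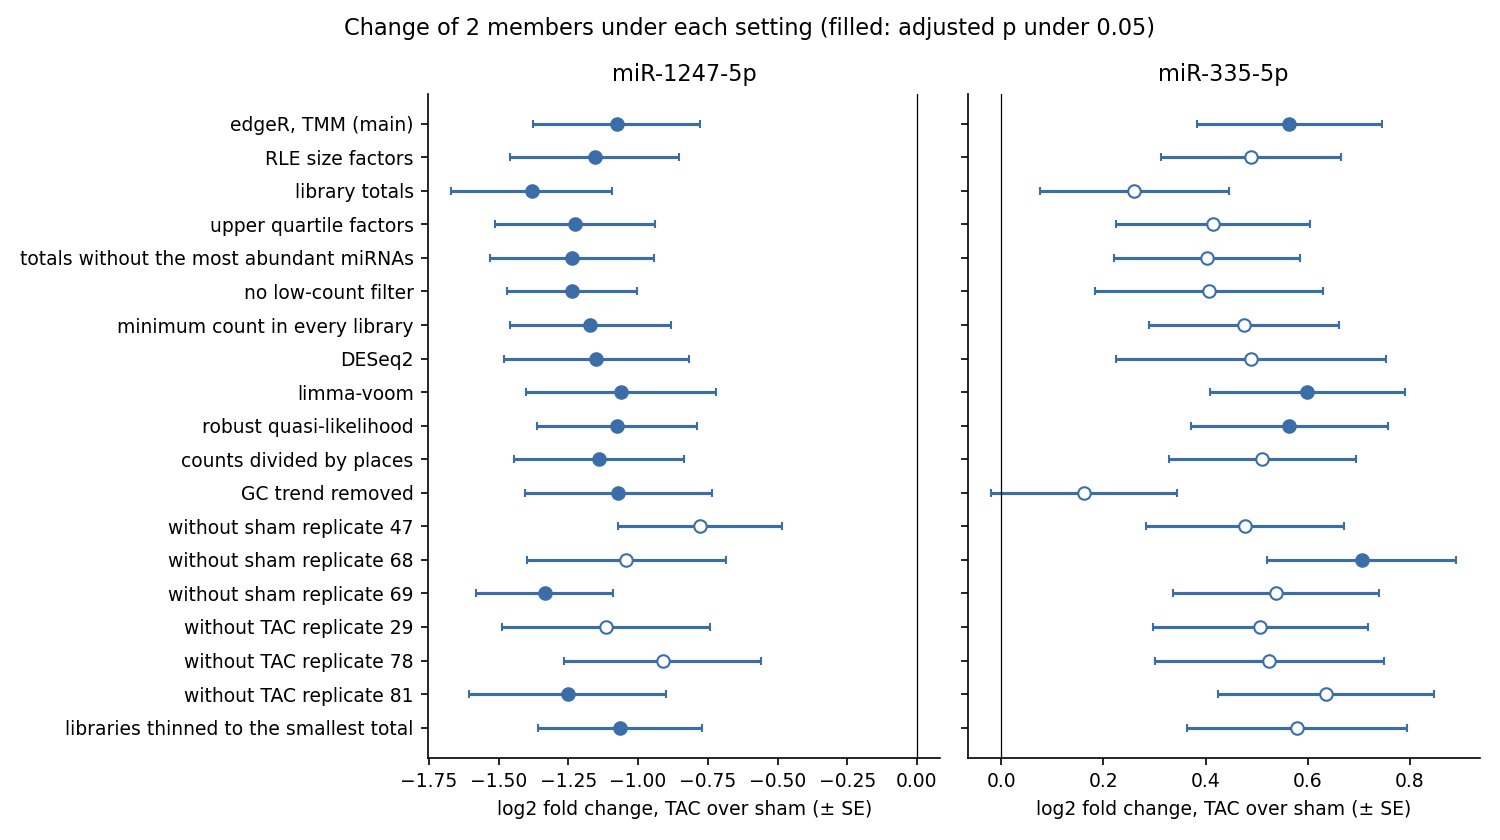
Log2 fold change of TAC over sham (± SE) of miR-1247-5p (left) and miR-335-5p (right) in the main analysis and in 18 alternatives, filled where the adjusted p was under 0.05. miR-1247-5p stays below 0 throughout and is filled in 14 alternatives, while miR-335-5p stays above 0 and is filled in 3.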

How the data were processed

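The deposited file holds raw read counts, 1 row per mature miRNA and 1 column per mouse. Per the submitters' processing notes, build mm10, HISAT2, StringTie and DESeq2 were used, without a stated role or version. How reads were counted, trimmed or assigned to a strand is not given in the sources used here. Total RNA was taken with a commercial kit and a company built the libraries, per the labels' protocols. All 6 columns were matched to a mouse and 0 were left over.

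TAC was compared with sham by edgeR 4.0.16 (quasi-likelihood test, TMM, filterByExpr, no covariate) in R 4.3.3, with Benjamini-Hochberg adjustment over all 354 tested rows. Standard errors are the log2 fold change over the root of the F statistic. The same test was run with the arms of each hairpin summed, and arm shares were compared by exact permutation over mice for hairpins with at least 10 counts per library. Alternatives were DESeq2 1.42.0, limma-voom (limma 3.58.1), robust fitting, 4 other scalings, 2 other filters, counts divided by places, a GC trend (span 0.75, over the 315 tested rows with a sequence), each mouse left out and, added after the data were seen, thinned libraries and the within-library ratio. The fit was also run on simulated counts drawn with its own dispersions and no GC trend, which cannot bear on the GC dependence above.

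The members, lists and tests were chosen with earlier results of these data known. Named miRNAs are the members, the 3 nearest profiles of each tested member, and up to 4 called miRNAs of each other imprinted locus with the smallest p. miR-409-3p, miR-296-5p, miR-669c-5p, miR-126a-3p and miR-122-5p are named in addition. The mice are separate animals per the labels, and no batch is given there.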

Additional observations from a re-analysis of the deposited data

How the results depend on the processing

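No paired analysis was possible because the groups share no animal number. The count of called members, 2 in the main analysis, was 1 (miR-1247-5p, lower) with RLE size factors, library totals, upper quartile factors, totals without the 5 most abundant miRNAs, no low-count filter, at least 10 counts in every library, DESeq2, counts divided by places, the GC trend removed and thinned libraries. It was 0 to 1 with each mouse left out, and 0 without sham 47, TAC 29 or TAC 78. The log2 fold change of miR-335-5p lost its call in these settings, at 0.49 with RLE size factors, 0.26 with library totals, 0.41 with upper quartile factors, 0.40 without the most abundant miRNAs, 0.41 without a filter, 0.47 with the count minimum, 0.49 with DESeq2, 0.51 with counts divided by places, 0.16 with the GC trend removed and 0.58 with thinned libraries. With each mouse left out it was 0.48 to 0.71.

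With each mouse left out miR-1247-5p was at -1.34 to -0.78, its summed hairpin at -1.34 to -0.88, miR-483-3p at -0.020 to 0.85 and the summed miR-483 hairpin at -0.15 to 0.51. The 5p share of miR-335 differed by -0.32 to 5.16 percentage points in those fits. miR-144-3p, near in profile to miR-483-3p, turned to -0.029 under library totals and to -0.14 once the GC trend was removed. The 13 other imprinted miRNAs called became 26 with library totals and 20 without the most abundant miRNAs, and 4 to 10 with each mouse left out. Library totals moved the median of all log2 fold changes by -0.31, totals without the most abundant miRNAs by -0.16, upper quartile factors by -0.15 and no filter by -0.21. Low counts left miR-483-5p, both miR-675 arms and miR-1247-3p untested.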
